A study of Oryctolagus cuniculus with 16 samples.

Results

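The media of the basilar terminus (BT), the bifurcation at the distal end of the basilar artery (BA), was compared between rabbits with ligated common carotid arteries and rabbits with sham surgery. The comparison used the 4 of 16 RNA-seq libraries whose labels give the media as the tissue and the BT as the vessel. Female New Zealand white rabbits had both common carotid arteries ligated (rabbits 5 and 6, high flow) or underwent a sham operation (rabbits 3 and 4, normal flow), and the vessels were taken 24 h later. The vessels of all rabbits were perfused with heparin in saline after death, and the labels do not give the animals' ages. Strips through the whole medial layer at the BT were cut by laser from frozen sections of 8 µm, tissue from about 10 sections was pooled, and each library is thus the tissue of 1 rabbit. Each group held 2 rabbits, and values with an error rest on n = 2 against 2, or on 1 against 2 where a rabbit is said to be left out. The other 12 libraries came from the BT intima, the BA media and the BA intima of the same 4 rabbits, and those of the BT intima and the BA media were used to ask whether the change with ligation differed between layers and between locations.

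The media of a cerebral artery is built of vascular smooth muscle cells (VSMCs) in a matrix of collagen, elastin and proteoglycans. Closing both carotid arteries sends more blood through the BA, and the wall around the apex of a bifurcation meets high wall shear stress. Sustained high flow makes arteries remodel, which involves turnover of matrix by proteases and their inhibitors and a change of VSMCs from a contractile state, rich in smooth muscle myosin and its regulators, toward a motile and secretory one.

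Counts on named genes were 3978419 and 6911390 in the sham libraries of rabbits 3 and 4, and 3350190 and 8504341 in the ligated libraries of rabbits 5 and 6. A library of this depth detected 8549 to 9016 genes. A count of 0 allows up to 3 counts, which is 0.353 to 0.895 CPM, the count scaled by library size in these libraries, and this limit covers counting error only. Levels are given as CPM after TMM scaling, always with rabbit 3 before rabbit 4 and rabbit 5 before rabbit 6. Gene length was not used, so that the members of a list with the highest CPM are those with the most reads, and CPM does not rank transcript levels between genes. Pearson's r of log2(CPM + 1) across the tested genes, which are not independent, was 0.888 between the sham libraries, 0.913 between the ligated libraries and 0.839 to 0.869 between a sham and a ligated library.

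The libraries carried the markers of VSMCs. ACTA2, smooth muscle alpha-actin, stood at 89653 and 63170.0 CPM in the sham and 66316 and 58979.9 CPM in the ligated rabbits, and MYLK, the myosin light chain kinase, at 4242 and 5780.3 CPM against 3447 and 3162 CPM. Of 8 VSMC markers, 6 were in the table (TAGLN and CNN1 were not analysed here), and their summed level was 97133 and 72223 CPM in the sham and 71920.1 and 65781 CPM in the ligated rabbits. Markers of neurons and glia were at or near 0, and 8 of the 12 brain markers in the table, among them GFAP, AQP4 and RBFOX3, had no count in any of the 4 libraries. The 8 lymphocyte markers reached at most a summed 4.80 CPM, and 5 of them had no count.

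Markers of other cell types were represented unevenly. The groups overlapped in the endothelial, erythroid and lymphocyte sums, among others, and did not overlap in the neutrophil and macrophage sums, which were higher after ligation, and in the Schwann cell sum, which was lower. The 14 endothelial markers summed to 674 and 1706 CPM in the sham and 1196 and 964 CPM in the ligated rabbits, and the highest CPM was that of ESAM, a junction molecule. PECAM1, an adhesion molecule of endothelium, was at 4.29 and 125 CPM in the sham and 124 and 54.9 CPM in the ligated rabbits, and VWF, von Willebrand factor, at 25.2 and 596 CPM against 311 and 98.9 CPM. The sham library of rabbit 3 had the lowest sum and alone had the lowest value for 10 of the 14 markers, while MMRN2 (120.5 and 129 CPM in sham, 71.3 and 84.6 CPM in ligated) and FLT1 (5.63 and 26.7 CPM against 4.65 and 24.1 CPM) were lower in another library. It was also lowest in HBB2, a beta-globin of red cells, at 1.61 and 6130.0 CPM in the sham and 3295 and 1513 CPM in the ligated rabbits. The 5 erythroid markers in the table summed to 3.49 and 6161 CPM in the sham and 3305 and 1517 CPM in the ligated rabbits. Macrophage markers (10 in the table, TYROBP with the highest CPM) summed to 85 and 62.6 CPM in the sham and 101 and 161 CPM in the ligated rabbits. Of the fibroblast and leptomeningeal markers, led by DCN, 13 were in the table and summed to 3833 and 4158 CPM in the sham and 2257 and 4136 CPM in the ligated rabbits, and the solute carriers SLC13A4 (0.537 and 70.8 CPM in sham, 1.75 and 0 in ligated), SLC22A6 (0.537 and 41.1 CPM against 0.291 and 0) and SLC6A13 (1.34 and 19.5 CPM against 0 and 0), which mark meningeal fibroblasts, came almost wholly from sham rabbit 4. Schwann cell markers (7 in the table, led by S100B) summed to 18.8 and 17.3 CPM in the sham and 5.24 and 11.7 CPM in the ligated rabbits, with PMP2 and PRPH at 0 in each library. Pericyte markers (7 in the table, led by NOTCH3) summed to 738 and 1363 CPM in the sham and 777 and 832 CPM in the ligated rabbits. No endothelial, macrophage, lymphocyte, leptomeningeal, Schwann cell, brain or erythroid marker passed the test described next. In such bulk tissue, fewer cells of a type and less RNA per cell cannot be told apart.

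**Figure D1:**
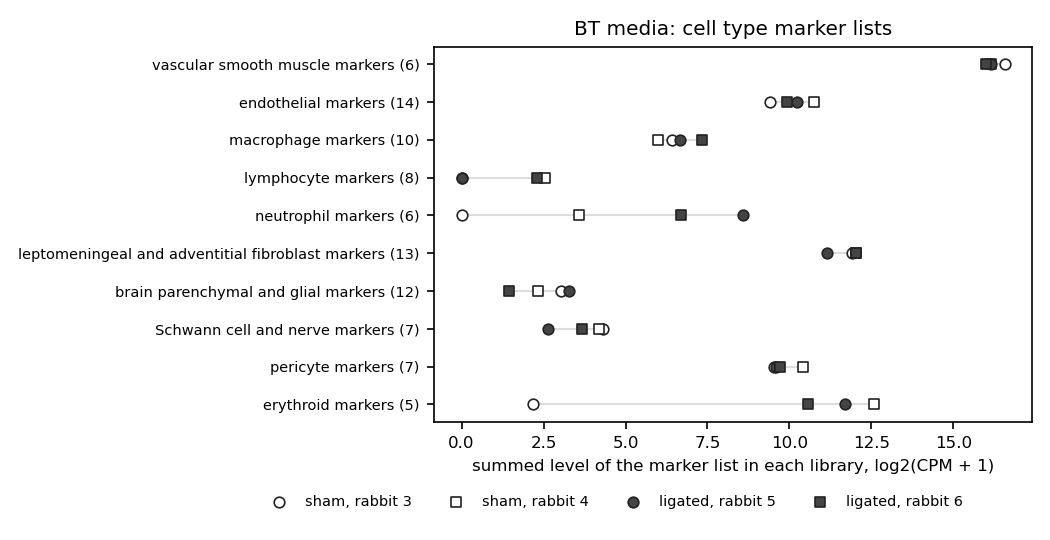
Summed level of each list of cell type markers in the 4 BT media libraries, as log2(CPM + 1) on the x axis, with the number of markers in the table in parentheses. The sham library of rabbit 3 (open circle) had the lowest endothelial, neutrophil and erythroid sums, and the ligated libraries (filled) had the highest neutrophil sums.

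Carotid ligation was followed by changes in 206 of the 8783 genes tested in the BT media (2.35%). Of these, 102 (1.16%) had increased and 104 (1.18%) had decreased expression at a q-value below 0.05, by the quasi-likelihood F test of edgeR after Benjamini-Hochberg adjustment. All of the 206 had sham and ligated libraries that did not overlap, as did 48.5% of the tested genes. The median log2 fold change over the tested genes was 0.03. Without composition normalization this median was 0.18, and 126 genes were increased and 68 decreased. The number of genes that passed depended on single rabbits. It was 645 without sham rabbit 3, 609 without sham rabbit 4, 109 without ligated rabbit 5 and 38 without ligated rabbit 6, and 202, 196, 88 and 36 of the 206 genes were among them. No gene of the 206 changed direction when a rabbit was left out, which groups without overlap make all but certain beforehand. Of the 206, 33 passed without each of the 4 rabbits in turn (16 increased, 17 decreased). The fit over all 16 libraries found 19 genes, all of them among the 206.

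**Figure D2:**
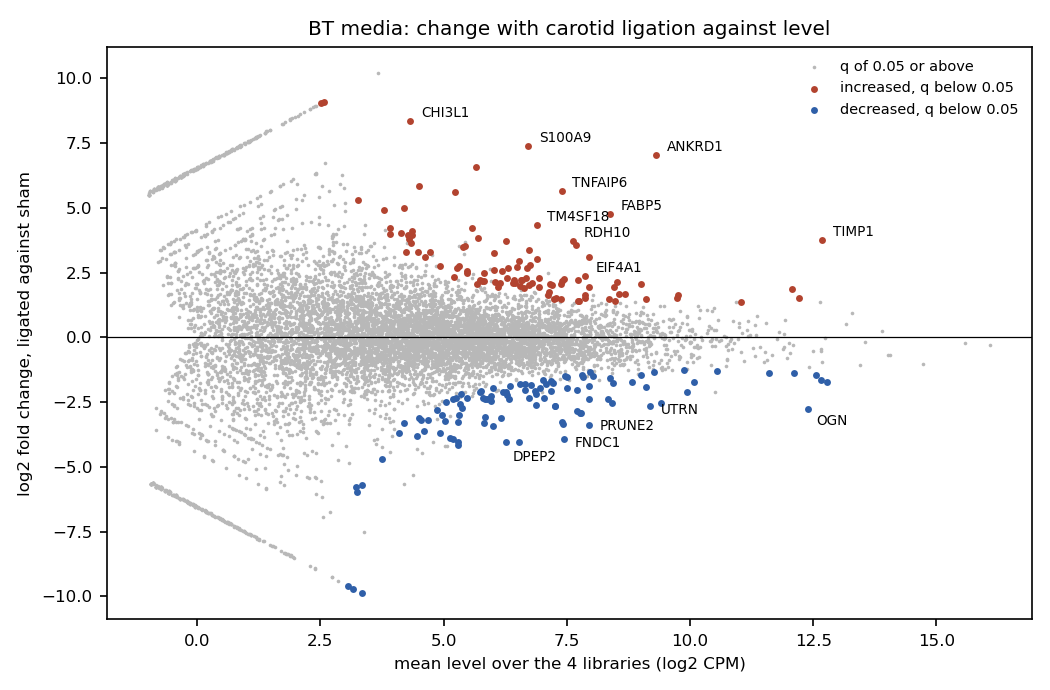
Log2 fold change with ligation (y axis) against the mean level over the 4 libraries (x axis, log2 CPM) for the 8783 genes tested in the BT media, with the 102 increased genes in red and the 104 decreased genes in blue. The straight outer bands are genes with no count in one group, whose fitted fold change depends on a prior count and is not a measured size.

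Among the 12 increased genes with the smallest q-values, ANKRD1, an ankyrin-repeat protein of muscle that responds to stretch and to the YAP coactivator, stood at 4.83 and 13.7 CPM in the sham and 1594 and 926 CPM in the ligated rabbits (log2 fold change 7.04, SE 0.55, q = 0.000154). TIMP1, a secreted inhibitor of metalloproteinases, stood at 928 and 867 CPM and 13668 and 10841 CPM (log2 fold change 3.77, SE 0.31, q = 0.000173). For both genes the ligated libraries lay more than 10-fold above the higher sham library. TNFAIP6, a hyaluronan-binding protein that inflammatory cytokines induce, rose from 9.93 and 3.75 to 217 and 445 CPM (log2 fold change 5.64, SE 0.57, q = 0.00104). FABP5, a fatty acid carrier, rose from 9.12 and 36.9 to 695 and 585 CPM (log2 fold change 4.77, SE 0.56, q = 0.0013). RDH10, the retinol dehydrogenase that opens the synthesis of retinoic acid, rose from 35.7 and 20.0 to 307 and 425 CPM (log2 fold change 3.73, SE 0.41, q = 0.00115). The lower of the ligated libraries was above the higher sham library by a wide margin for each of these. TM4SF18, a membrane protein of the tetraspanin-like L6 family, rose from 14.8 and 7.65 to 283 and 169 CPM (log2 fold change 4.35, SE 0.49, q = 0.00115), and CLIC1, a chloride intracellular channel protein, from 23.3 and 41.4 to 495 and 269 CPM (log2 fold change 3.55, SE 0.44, q = 0.00172). EIF4A1, the RNA helicase of translation initiation, was close within each group, at 72.7 and 78.2 CPM against 409 and 373 CPM (log2 fold change 2.37, SE 0.33, q = 0.00384). CHI3L1, a secreted chitinase-like glycoprotein, had 1 count in the sham libraries together and 517 in the ligated libraries, a 426-fold ratio (95% interval 76.2 to 16900, exact binomial, counting error only; q = 0.00364).

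S100A9, a calcium-binding alarmin that neutrophils carry in bulk and that other stressed cells can make, stood at 0 and 2.10 CPM in the sham and 355 and 64.1 CPM in the ligated rabbits (log2 fold change 7.38, SE 1.01, q = 0.00384), with ligated rabbit 5 the higher. Its partner S100A8 was at 0 and 8.85 CPM against 27 and 38.9 CPM (q = 0.252). The 6 neutrophil markers in the table summed to 0 and 11 CPM in the sham and 382 and 103 CPM in the ligated rabbits, and the sum is S100A9 and S100A8 alone. CSF3R, CXCR1, FPR1 and MPO had no count in any of the 4 libraries. The source of these reads was not tested.

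Among the 12 decreased genes with the smallest q-values, OGN, osteoglycin, a small leucine-rich proteoglycan, fell from 7686 and 10975 to 1352 and 1423 CPM (log2 fold change -2.75, SE 0.31, q = 0.00116). ECM2, a related leucine-rich matrix protein, fell from 314 and 299 to 31.4 and 32.7 CPM (log2 fold change -3.25, SE 0.36, q = 0.00115), and ABI3BP, a matrix protein, from 296 and 327 to 31.4 and 29.9 CPM (log2 fold change -3.35, SE 0.36, q = 0.00115). For ECM2 and ABI3BP the libraries of a group were close, while the sham libraries of OGN were further apart. For each of these 3 genes both ligated libraries lay far below both sham libraries. UTRN, the dystrophin relative utrophin that ties actin to the membrane, fell from 1019 and 994 to 179 and 142 CPM (log2 fold change -2.65, SE 0.31, q = 0.0013). RCAN2, an inhibitor of calcineurin, fell from 288 and 480.1 to 50.6 and 49.9 CPM (log2 fold change -2.93, SE 0.37, q = 0.00216). The fall of each was present in both ligated rabbits. ARID5B, a DNA-binding regulator of transcription, fell from 1144 and 1173 to 217 and 179.7 CPM (log2 fold change -2.55, SE 0.31, q = 0.0015), and PRUNE2 from 404 and 498 to 34.3 and 50.8 CPM (log2 fold change -3.40, SE 0.36, q = 0.00115). DPEP2, a membrane dipeptidase, fell from 170.1 and 121 to 7.56 and 10.0 CPM (log2 fold change -4.03, SE 0.47, q = 0.0013), and FNDC1, a fibronectin type III domain protein, from 286 and 369 to 34.6 and 9.60 CPM (log2 fold change -3.92, SE 0.55, q = 0.00414). Of the 12 genes with the smallest q-values in each direction, FLNC and WDR1 lost the call when ligated rabbit 6 was left out, and the other 22 kept it without each rabbit in turn.

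A group at 0 gives a lower bound and no fold. SLC7A11, the cystine importer, had no count in either ligated library and stood at 6.98 and 33.5 CPM in the sham rabbits, at least 33.7-fold lower after ligation against 3 counts per library (q = 0.0175). TNNC1, slow troponin C, was at least 30.0-fold lower (sham 10.2 and 25.8 CPM, q = 0.016). For both genes the sham level itself differed more than 2-fold between rabbits, with rabbit 4 the higher, as it was for the meningeal carriers SLC13A4, SLC22A6 and SLC6A13 above. The part of meningeal tissue in these differences was not tested. DERL3, a factor of endoplasmic reticulum degradation, was at least 19.0-fold higher (ligated 9.89 and 14 CPM, q = 0.0416) and DUOXA2, a maturation factor of an NADPH oxidase, at least 18.2-fold higher (ligated 16 and 6.87 CPM, q = 0.0489). TNNC1, DERL3 and DUOXA2 were chosen after their values were seen, because they passed the threshold with a group at 0. Each of these 4 genes lost its call when ligated rabbit 6 was left out, DERL3 and DUOXA2 also without ligated rabbit 5, and SLC7A11 also without sham rabbit 4.

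Contractile genes were mostly lower. Of 25 genes of the contractile apparatus tested, 4 passed with decreased and 0 with increased expression, beside 1.18% and 1.16% of all tested genes. A log2 fold change below 0 was found in 21 of 25, against 4317 of 8783 genes tested. Their median log2 fold change was -0.64, beside 0.03 for the tested genes, and under the other scalings it stood 0.67 and 0.68 below the median of the tested genes. MYH11, the smooth muscle myosin heavy chain, stood at 1964 and 1338 CPM in the sham and 415 and 598 CPM in the ligated rabbits (log2 fold change -1.70, SE 0.33, q = 0.0221). PPP1R12A, the targeting subunit of myosin phosphatase, stood at 5411 and 3501 CPM against 1579.5 and 1879.7 CPM (log2 fold change -1.37, SE 0.31, q = 0.0438). LMOD1, the actin nucleator leiomodin, stood at 314 and 459.5 CPM against 158 and 115 CPM (log2 fold change -1.50, SE 0.34, q = 0.0438). In all 3 genes both ligated libraries were below both sham libraries. ITGA8, the alpha-8 integrin of smooth muscle, fell from 264 and 397 to 135 and 105 CPM (log2 fold change -1.46, SE 0.35, q = 0.0493). The 2 members with the highest CPM did not pass. ACTA2 had a log2 fold change of -0.29 (SE 0.29, q = 0.67) and TPM1, a tropomyosin, of -0.69 (SE 0.28, q = 0.249). DES, desmin, was at 606 and 1097 CPM against 1080.5 and 2435 CPM (q = 0.229), and SMTN, smoothelin, at 355 and 378 CPM against 503 and 491 CPM (q = 0.489). The 4 calls were lost without ligated rabbit 5 and without ligated rabbit 6, and that of ITGA8 also without sham rabbit 4.

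Genes of the non-muscle actin cytoskeleton lay mostly in the other direction. Of 30 tested, 8 passed with increased expression and 0 with decreased expression, beside 1.16% and 1.18% of all tested genes. A log2 fold change above 0 was found in 24, beside 50.8% of all tested genes, and the list's median was 0.77. FLNC, filamin C, a cross-linker of actin, stood at 11 and 10.8 CPM in the sham and 87 and 200.0 CPM in the ligated rabbits (log2 fold change 3.72, SE 0.52, q = 0.00402). WDR1, which takes actin filaments apart together with cofilin, stood at 23.9 and 18.3 CPM against 145 and 183 CPM (log2 fold change 2.96, SE 0.42, q = 0.00428). TAGLN2, transgelin 2, stood at 3.76 and 9.75 CPM against 104 and 91.4 CPM (log2 fold change 3.82, SE 0.58, q = 0.00613). In each of the 3 the lower ligated library was more than 5-fold above the higher sham library. ACTN1, the alpha-actinin of focal adhesions, rose from 106 and 98.4 to 432 and 347 CPM (log2 fold change 1.93, SE 0.32, q = 0.0102). The other 4 that passed were ARPC1B and ARPC2, subunits of the branching Arp2/3 complex, CAPG, a capping protein, and PLS3, an actin bundler, with log2 fold changes of 2.23, 1.54, 3.63 and 1.65. The 2 members with the highest CPM did not pass. MYL12B, a non-muscle myosin light chain, was at 1158 and 942 CPM against 1231 and 1069 CPM (q = 0.868), and PFN1, profilin, at 688 and 714 CPM against 1389 and 1124 CPM (q = 0.177). TAGLN2 was the member that passed without each rabbit, and without ligated rabbit 6 it was the sole one of the 8.

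**Figure D3:**
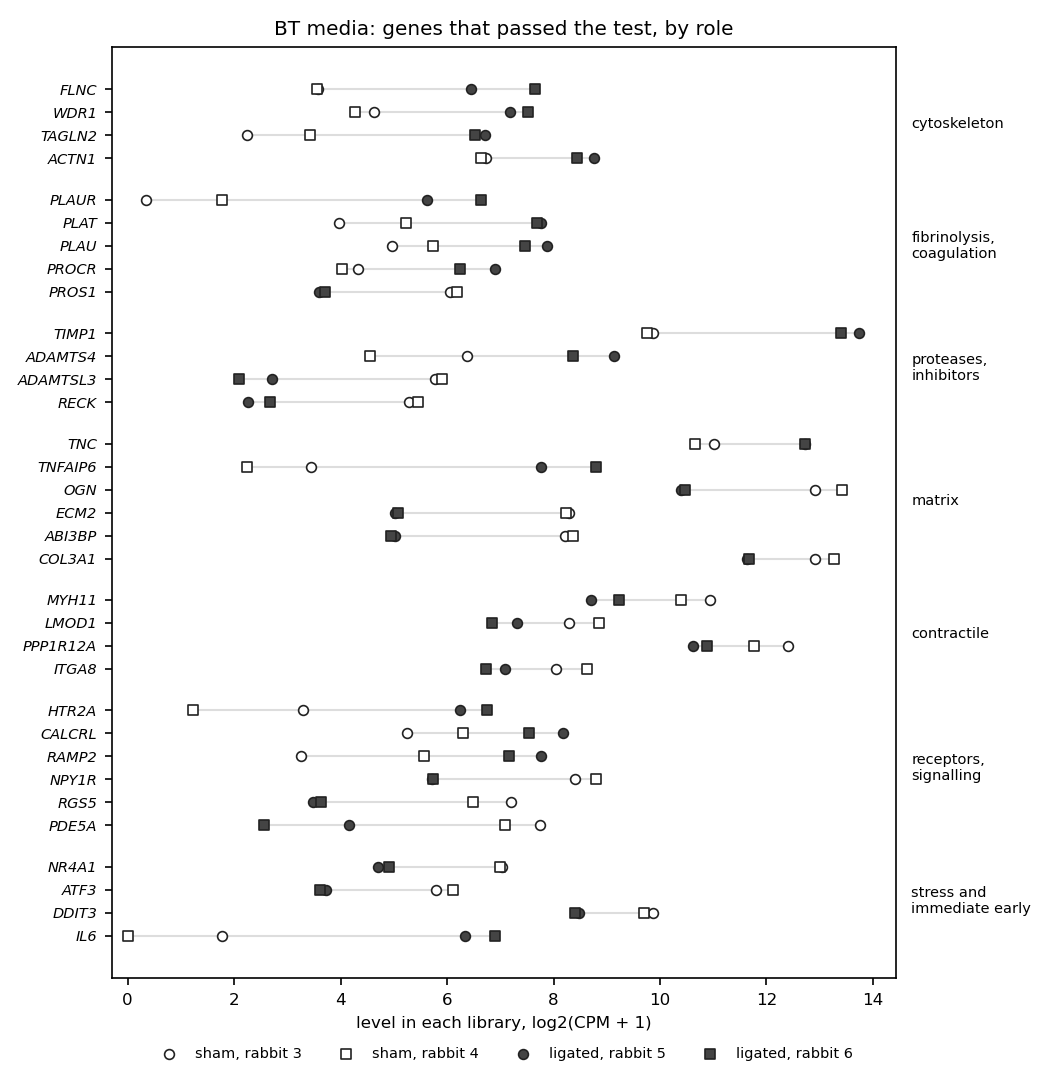
Level of 33 genes past the threshold in each BT media library, as log2(CPM + 1) on the x axis, grouped by role, with sham libraries as open and ligated libraries as filled symbols. The filled and the open symbols do not overlap for any gene, as for all 206 genes past the threshold and 48.5% of the tested genes. The filled symbols are to the right for cytoskeletal and most fibrinolytic genes and to the left for contractile genes.

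Plasminogen activation and its surroundings held the highest median of the 27 lists, which were chosen with earlier results of these data known. Of 14 genes tested, 5 passed with increased and 1 with decreased expression, beside 1.16% and 1.18% of all tested genes. A log2 fold change above 0 was found in 12, beside 50.8% of all tested genes, and the list's median was 1.28. Plasminogen activators turn plasminogen into plasmin, which cuts fibrin and matrix. PLAU, urokinase, stood at 30.3 and 52.5 CPM in the sham and 235 and 175 CPM in the ligated rabbits (log2 fold change 2.30, SE 0.41, q = 0.0137). Its receptor PLAUR stood at 0.268 and 2.40 CPM against 48.6 and 98.6 CPM (log2 fold change 5.63, SE 0.84, q = 0.00557), and PLAT, tissue plasminogen activator, at 14.8 and 36.6 CPM against 218 and 205 CPM (log2 fold change 3.03, SE 0.47, q = 0.00676). Both activators and the receptor were thus higher in each ligated library than in each sham library. S100A10, a cell surface partner of annexin A2 that binds plasminogen, rose from 51.2 and 77.9 to 255 and 179 CPM (log2 fold change 1.74, SE 0.38, q = 0.0377). PROCR, the protein C receptor, rose from 19 and 15.3 to 118 and 74.5 CPM (log2 fold change 2.49, SE 0.48, q = 0.0226), while PROS1, protein S, the cofactor of activated protein C, fell from 65.7 and 72.2 to 11.1 and 12 CPM (log2 fold change -2.58, SE 0.52, q = 0.0263). The inhibitors SERPINE2, at 895 and 840.3 CPM against 1235 and 1696 CPM (q = 0.235), and TFPI, at 749.5 and 606 CPM against 803 and 1159 CPM (q = 0.434), had the highest CPM of the list and did not pass. PLAT passed without each rabbit in turn, without ligated rabbit 6 it was the sole one of the 6, and without ligated rabbit 5 PLAT and PLAUR passed. PROCR is also made by endothelium, whose marker sums are given above. Without sham rabbit 3, where those sums were lowest, its log2 fold change was 2.65, and the call was lost without either ligated rabbit. The part of endothelial RNA in this change was not tested.

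Metalloproteinases and their inhibitors gave 2 increased and 2 decreased genes of 33 tested, beside 1.16% and 1.18% of all tested genes. The list's median was 0.69, with 19 members above 0 and 14 below. Beside TIMP1, ADAMTS4, a protease of proteoglycans, increased from 81.8 and 22.4 to 562 and 327 CPM (log2 fold change 3.10, SE 0.54, q = 0.013), with the sham rabbits well apart from each other. RECK, a membrane-anchored inhibitor of matrix metalloproteinases, decreased from 38.1 and 42.8 to 3.78 and 5.34 CPM (log2 fold change -3.13, SE 0.68, q = 0.0358), and ADAMTSL3, a matrix protein akin to ADAMTS proteases but without a catalytic domain, from 53.4 and 58.8 to 5.53 and 3.27 CPM (log2 fold change -3.70, SE 0.64, q = 0.0128). The call of RECK was lost without either ligated rabbit and that of ADAMTSL3 without rabbit 6. TIMP1 and TIMP3 had the highest CPM, and TIMP3 stood at 1464 and 2333 CPM against 1251 and 1791 CPM, with overlapping groups (q = 0.676). MMP2, a gelatinase named here after its values were seen, was at 102 and 171 CPM against 59 and 83.3 CPM (q = 0.281).

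Structural matrix genes gave few calls, and 2.35% of all tested genes passed. Of 28 collagen chains and collagen enzymes, 1 passed. COL3A1, the chain of type III collagen, fell from 7715 and 9837 to 3195 and 3260.3 CPM (log2 fold change -1.44, SE 0.29, q = 0.0253), and the call was lost without either ligated rabbit. COL8A1, which with COL3A1 had the highest CPM of the list, was at 8057 and 7119 CPM against 11370.5 and 10257 CPM (q = 0.394). The median of the list was 0.31, so that COL3A1 did not share the sign of most members. Of 20 proteoglycan genes, OGN and ECM2 passed with decreased expression, 14 had a log2 fold change below 0, and the median was -0.59. DCN, decorin, was at 1522 and 1871 CPM against 1147 and 2265 CPM with overlapping groups (q = 0.993). Of the 13 fibroblast and leptomeningeal markers, 9 had a log2 fold change below 0 and 4 above, with a median of -0.74. The part of these cell types in the proteoglycan list was not tested. Of 18 elastic fibre genes, with a median of 0.12, ABI3BP alone passed, and FBN1, fibrillin 1, was at 698 and 614 CPM against 646 and 822 CPM (q = 0.837). Of 19 matricellular genes, 2 increased and 1 decreased, with a median of 0.08. TNC, tenascin C, an anti-adhesive protein of remodelling tissue, rose from 2070.0 and 1619 to 6743 and 6752 CPM (log2 fold change 1.87, SE 0.29, q = 0.00691), and the ligated rabbits differed from each other by less than the sham rabbits did. CYR61, a matricellular YAP target, fell from 240.4 and 275 to 96.3 and 89.7 CPM (log2 fold change -1.47, SE 0.33, q = 0.0422). MGP, matrix Gla protein, at 63841 and 40743 CPM against 40078 and 50381 CPM (q = 0.786), and SPARCL1, at 16308 and 13748 CPM against 8006 and 6493 CPM (q = 0.0841), did not pass. The calls of TNC and CYR61 were lost without ligated rabbit 6, and that of CYR61 also without rabbit 5.

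Adhesion receptors gave 3 increased and 1 decreased gene of 35 integrin, laminin and focal adhesion genes tested, with a median of 0.12. The shares over all tested genes were 1.16% increased and 1.18% decreased. ITGA5, the alpha chain of the main fibronectin receptor, rose from 163 and 232 to 813 and 839.6 CPM (log2 fold change 2.07, SE 0.32, q = 0.00676). ITGB3, the beta-3 integrin, rose from 118 and 174 to 697 and 423 CPM (log2 fold change 1.94, SE 0.36, q = 0.0171), and ITGB1BP2, the muscle chaperone melusin that binds the beta-1 tail, from 87.2 and 34.7 to 271 and 301 CPM (log2 fold change 2.24, SE 0.44, q = 0.0235). The decreased gene was ITGA8, so that 2 alpha chains of receptors for fibronectin changed in opposite directions. FERMT2 and ILK, adaptors of integrin tails, had the highest CPM, with q-values of 0.477 and 0.608. ITGA5 passed without each rabbit in turn, while ITGB3 lost the call without ligated rabbit 5 and ITGB1BP2 without ligated rabbit 6.

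Receptors and second messenger enzymes of vascular tone gave 4 increased and 3 decreased genes of 37 tested, with a median of 0.07. Over all tested genes the shares were 1.16% and 1.18%. HTR2A, the serotonin receptor through which smooth muscle contracts, stood at 8.85 and 1.35 CPM in the sham and 74.5 and 106 CPM in the ligated rabbits (log2 fold change 4.21, SE 0.76, q = 0.015). CALCRL and RAMP2 form the adrenomedullin receptor together. CALCRL stood at 36.8 and 77.4 CPM against 287 and 185 CPM (log2 fold change 2.04, SE 0.43, q = 0.0339), and RAMP2 at 8.58 and 46.2 CPM against 216 and 143 CPM (log2 fold change 2.69, SE 0.62, q = 0.0449). Both lowest values were those of sham rabbit 3, the library with the lowest sum of endothelial markers, and endothelium also makes this receptor. Without that rabbit the log2 fold change was 1.6 for CALCRL and 1.95 for RAMP2, and without sham rabbit 4 it was 2.68 and 4.38. Such a fit leaves 1 sham library and does not hold the spread between the sham rabbits. Both calls were lost without either ligated rabbit, and the part of endothelial RNA in these changes was not tested. PTHLH, parathyroid hormone-like hormone, a relaxing peptide, rose from 1.34 and 1.65 to 40.7 and 16.7 CPM (log2 fold change 4.23, SE 0.90, q = 0.0339). In the opposite direction, NPY1R, a receptor for the nerve transmitter neuropeptide Y, fell from 338 and 446 to 51.5 and 52.6 CPM (log2 fold change -2.91, SE 0.35, q = 0.0013). RGS5, which shortens G protein signals in VSMCs and pericytes, fell from 146 and 88.7 to 10.2 and 11.5 CPM (log2 fold change -3.43, SE 0.49, q = 0.00459), and PDE5A, the phosphodiesterase that degrades cGMP, from 214 and 135 to 16.9 and 4.91 CPM (log2 fold change -4.05, SE 0.59, q = 0.00492). These 3 decreases passed without each rabbit in turn, while HTR2A lost the call without ligated rabbit 6 and PTHLH without either ligated rabbit. EDNRA, the endothelin receptor of smooth muscle, was at 302 and 311 CPM against 327 and 284 CPM (q = 0.995).

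Of 32 ion channel and calcium handling genes, 1 increased and 1 decreased, beside 1.16% and 1.18% of all tested genes. A log2 fold change below 0 was found in 22, beside 4317 of 8783 genes tested, and the list's median was -0.47. RYR2, a calcium release channel of the sarcoplasmic reticulum, fell from 226 and 179 to 43 and 24.1 CPM (log2 fold change -2.60, SE 0.42, q = 0.00844). ABCC9, the sulfonylurea receptor subunit of the vascular potassium channel gated by ATP, rose from 35.4 and 75.5 to 184 and 279 CPM (log2 fold change 2.06, SE 0.43, q = 0.0327), while its pore subunit KCNJ8 was at 62 and 74.7 CPM against 54.7 and 59.1 CPM (q = 0.809). Both calls were lost without ligated rabbit 6. ABCC9 and RGS5 are also pericyte markers, and they changed in opposite directions. Of the other pericyte markers, PDGFRB was at 250.3 and 368 CPM against 301 and 274 CPM, CSPG4 at 0.805 and 2.40 CPM against 6.69 and 26.7 CPM, NOTCH3 at 238 and 749 CPM against 209.7 and 169 CPM, and CD248 at 5.10 and 4.80 CPM against 10.8 and 12.3 CPM, and none passed.

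Targets of YAP, a coactivator of transcription that responds to cell tension, were split. Of 28 tested, ANKRD1 increased and CYR61, AMOTL2 and NT5E decreased, 14 had a log2 fold change above 0, and the median was -0.02. Among all tested genes, 1.16% increased and 1.18% decreased. AMOTL2, an angiomotin of junctions, stood at 280.1 and 546 CPM in the sham and 87 and 71.3 CPM in the ligated rabbits (log2 fold change -2.39, SE 0.39, q = 0.00863), and NT5E, the enzyme that makes adenosine, at 36.5 and 45.9 CPM against 5.24 and 0.981 CPM (log2 fold change -3.81, SE 0.86, q = 0.042). CTGF, another target, was at 3786 and 3300.1 CPM against 3517 and 3319 CPM (q = 0.945). ANKRD1 was the sole member of the 4 to pass without each rabbit in turn.

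Transcription factors of the immediate early response, which is spent within hours of a stimulus, gave 2 decreased genes of 17, with a median of -0.09. The share decreased over all tested genes was 1.18%. NR4A1, an orphan nuclear receptor, stood at 129.8 and 126 CPM in the sham and 25 and 29.1 CPM in the ligated rabbits (log2 fold change -2.24, SE 0.41, q = 0.0159), and ATF3, a stress-induced repressor, at 54.5 and 68.1 CPM against 12.2 and 11.2 CPM (log2 fold change -2.39, SE 0.54, q = 0.042). Both lost the call without either ligated rabbit. DUSP1, the phosphatase of MAP kinases, was at 798 and 960.2 CPM against 537 and 586 CPM (q = 0.307), and BTG2 at 594 and 473 CPM against 452 and 294 CPM (q = 0.467). The stress factor of the endoplasmic reticulum DDIT3, also called CHOP, fell from 930.1 and 834 to 354 and 337 CPM (log2 fold change -1.35, SE 0.29, q = 0.0347). It stood in a list of 28 folding genes of that compartment in which 21 had a log2 fold change above 0, with a median of 0.67. SDF2L1, a cofactor of the chaperone BiP, rose from 69.8 and 54.2 to 328 and 229 CPM (log2 fold change 2.17, SE 0.37, q = 0.0105), and SEC61A1, the channel for nascent proteins, from 61.7 and 72.2 to 248 and 174 CPM (log2 fold change 1.65, SE 0.37, q = 0.0388). The 3 calls were lost without ligated rabbit 5, and those of DDIT3 and SEC61A1 also without rabbit 6. HSP90B1, a chaperone, was at 1769.5 and 1532 CPM against 2614 and 2273 CPM (q = 0.36).

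Of 33 cytokines, chemokines and their receptors, 27 had a log2 fold change above 0, with a median of 1.21, or 0.97 with genes at 0 in a group set to their bound. One passed, IL6, interleukin 6, at 2.41 and 0 CPM in the sham and 79.4 and 119 CPM in the ligated rabbits (log2 fold change 6.58, SE 1.01, q = 0.00676), and it passed without each rabbit in turn. VCAM1, an adhesion molecule for leukocytes, was at 48 and 764 CPM against 1153 and 729 CPM (q = 0.486), so that sham rabbit 3 alone was low. NFKBIA, the NF-kappaB inhibitor, was at 373 and 476 CPM against 435 and 339.6 CPM (q = 0.873). Sham rabbit 3, low in VCAM1, also had the lowest PECAM1 level and endothelial sum. The neutrophil and macrophage sums were higher after ligation, as given above. Of the 8 macrophage markers tested, 7 had a log2 fold change above 0, with a median of 0.97. The part of these cell types in the cytokine list was not tested. Of 18 annexins, S100 proteins and galectins (S100A8 and S100A9 stood in the neutrophil list instead), 3 increased, 10 had a log2 fold change above 0 and 8 below, and the median was 1.06. ANXA1 rose from 1252 and 1112 to 2725 and 3331 CPM (log2 fold change 1.36, SE 0.29, q = 0.0339), and ANXA8 from 0 and 1.35 to 36.9 and 52.9 CPM (log2 fold change 5.83, SE 1.02, q = 0.013), beside S100A10. The 3 calls were lost without ligated rabbit 6, and those of ANXA1 and S100A10 also without rabbit 5. Of 38 proteasome genes, 34 had a log2 fold change above 0, with a median of 0.44, and PSMD14, a deubiquitinase of the lid, passed, from 132 and 111 to 257 and 435 CPM (log2 fold change 1.52, SE 0.36, q = 0.0468), although not without ligated rabbit 6. Among the 8 subunits of the chaperonin TRiC, which folds actin and tubulin, 8 had a log2 fold change above 0, from 0.33 for CCT6A to 0.86 for CCT3, and 0 passed edgeR's test (2 had an unadjusted p below 0.05, and DESeq2 called 0). Of the tested genes, 4466 of 8783, or 50.8%, had a log2 fold change above 0, and 2.35% passed.

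**Figure D4:**
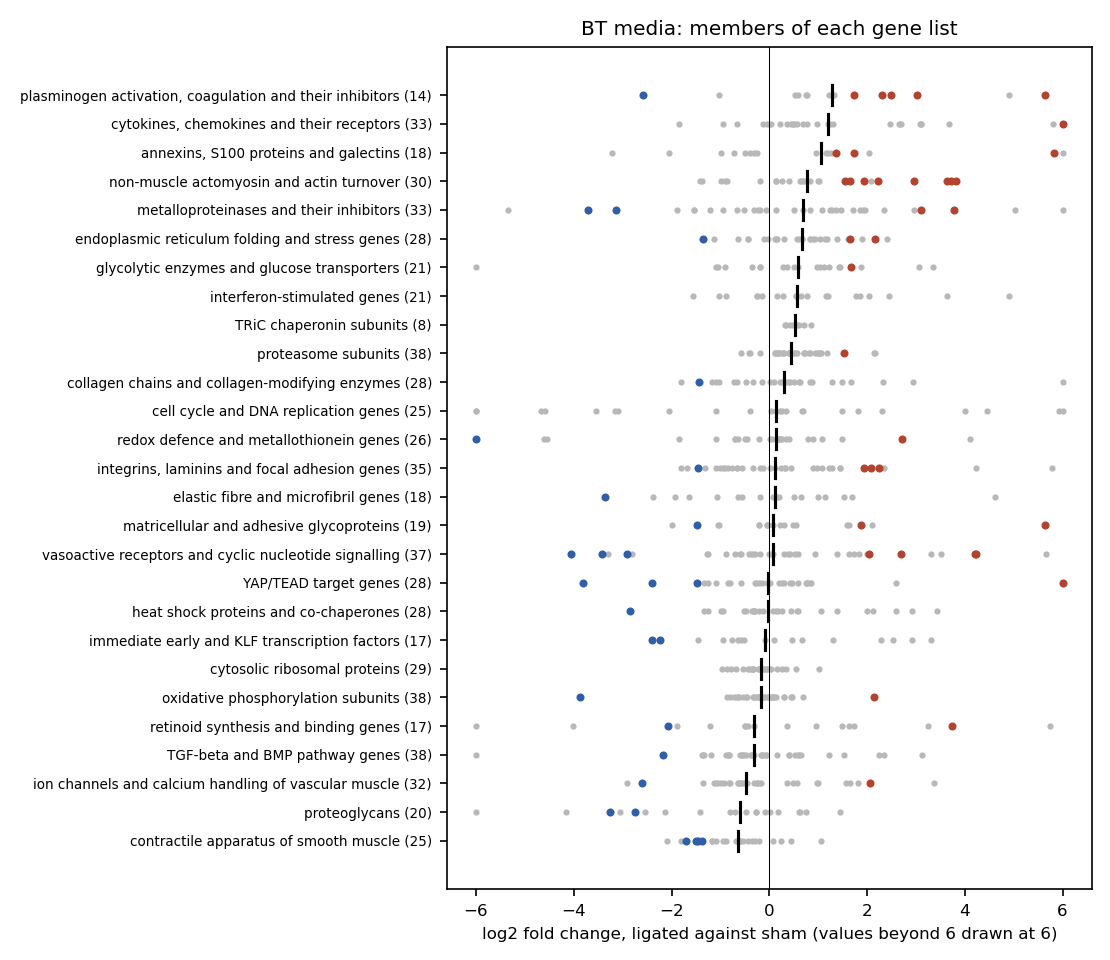
Log2 fold change with ligation (x axis) of the tested members of 27 gene lists in the BT media, with increased genes in red, decreased genes in blue, the other members in grey and the list's median as a black bar. The number tested is in parentheses, and values beyond 6 on either side are drawn at 6. Medians ran from -0.64 for the contractile apparatus to 1.28 for plasminogen activation and coagulation. The lists were chosen with earlier results of these data known.

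Of 21 glycolysis genes, 14 had a log2 fold change above 0, with a median of 0.59. One of them, LDHA, lactate dehydrogenase A, passed, from 189 and 204 to 698 and 560.4 CPM (log2 fold change 1.68, SE 0.31, q = 0.016), and ALDOA and LDHB, with the highest CPM, had q-values of 0.659 and 0.832. Of 38 subunits of oxidative phosphorylation, ATP5PF, of the ATP synthase, rose from 152 and 118 to 699 and 496 CPM (log2 fold change 2.15, SE 0.33, q = 0.00691), and COX7A1, the muscle form of a cytochrome oxidase subunit, fell from 79.1 and 53 to 4.07 and 4.80 CPM (log2 fold change -3.88, SE 0.60, q = 0.00691). The median of that list was -0.16, and COX5B and COX6A1, with the highest CPM, had q-values of 0.856 and 0.945. Of 29 ribosomal protein genes 0 passed edgeR's test (3 at an unadjusted p below 0.05, and 3 by DESeq2), with a median of -0.16. Of 25 cell cycle genes 0 passed edgeR's test (8 at an unadjusted p below 0.05, and 4 by DESeq2), with a median of 0.14, and CDK4 was at 199 and 182 CPM against 292 and 317 CPM. Of 26 redox genes, with a median of 0.13, SRXN1, sulfiredoxin, rose from 15.8 and 31.4 to 161 and 153 CPM (log2 fold change 2.72, SE 0.45, q = 0.00922), and SLC7A11 fell as given above. Of 17 retinoid genes, with a median of -0.31, RDH10 increased and ALDH1A1, which completes the synthesis of retinoic acid, decreased from 178 and 197 to 45.7 and 43.3 CPM (log2 fold change -2.08, SE 0.37, q = 0.0133). Of 28 heat shock genes, with a median of -0.03, DNAJB4, a co-chaperone, fell from 554 and 182 to 36.4 and 64.9 CPM (log2 fold change -2.85, SE 0.51, q = 0.0139), with sham rabbit 3 the highest, and CRYAB, with the highest CPM, was at 4609 and 2446 CPM against 8605 and 9779 CPM (q = 0.0547). Of 38 genes of the TGF-beta and BMP pathways, INHBA, a chain of activin, fell from 167 and 217 to 53.5 and 32.1 CPM (log2 fold change -2.17, SE 0.40, q = 0.0169), and the median was -0.32. Of 21 interferon-stimulated genes 0 passed edgeR's test (2 at an unadjusted p below 0.05, and 0 by DESeq2), with a median of 0.56. Among all tested genes, 2.35% passed. Of the genes in this paragraph that passed, ATP5PF, RDH10 and DNAJB4 kept the call without each rabbit in turn. LDHA and ALDH1A1 lost it without either ligated rabbit, COX7A1, SRXN1, SLC7A11 and INHBA without ligated rabbit 6, and SLC7A11 also without sham rabbit 4. Without composition normalization the medians of the YAP, immediate early and heat shock lists were above 0, but relative to the median of the tested genes they stood 0.05, 0.15 and 0.06 below it, beside 0.05, 0.11 and 0.06 below it with TMM scaling.

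The change with ligation at the BT was compared with that in the BA media of the same rabbits, where flow also rises and the libraries held 2154863 to 11219236 counts. The difference of the log2 fold changes (BT minus BA) was tested with rabbit as a block over the 8 medial libraries, and 47 of 9368 genes passed (0.502%), 20 with a positive and 27 with a negative difference. Without composition normalization the split was 32 positive and 13 negative, and the median difference over the genes moved from 0.12 to 0.41, while DESeq2 gave 37 positive and 119 negative. Without the replicate block 2 genes passed, APOD and CP. The number was 178, 189, 109 and 31 without rabbits 3, 4, 5 and 6. Of the genes described above that increased at the BT, TIMP1 had the larger fold change there. In sham rabbits its BA media level was 973 and 836 CPM and in ligated rabbits 5409 and 2369 CPM (log2 fold change 2.10, SE 0.39, q = 0.0553), and the difference was 1.77 (SE 0.27, q = 0.000953). CLIC1 (1.84, SE 0.39, q = 0.0256), S100A10 (1.97, SE 0.44, q = 0.0346) and RAMP2 (3.13, SE 0.57, q = 0.00457) also had positive differences. S100A10 had a log2 fold change of 1.74 at the BT and -0.13 at the BA, and RAMP2 of 2.69 and -0.05. In the BA, RAMP2 was at 34.1 and 215 CPM in sham and 207 and 35.5 CPM in ligated rabbits, where PECAM1 was at 2.71 and 32.5 CPM against 137 and 5.38 CPM and the endothelial markers summed to 565 and 867 CPM in the sham and 1102 and 535 CPM in the ligated rabbits. The high and the low libraries were the same for RAMP2 and PECAM1, and the part of endothelial RNA in the difference was not tested. The difference was lost without rabbit 6 for CLIC1, S100A10 and RAMP2, and also without rabbit 5 for CLIC1 and without rabbit 3 for S100A10.

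Among the named decreased genes, 3 differed. In the BA media, NPY1R was at 67.7 and 147 CPM in sham and 59.4 and 81.7 CPM in ligated rabbits (log2 fold change -0.60, SE 0.48, q = 0.602), a difference of -2.40, SE 0.45, q = 0.00665, which was lost without rabbit 6 (q = 0.0596). The groups of NPY1R overlapped in the BA, where the sham level was also lower than at the BT. ARID5B stood at 692 and 655 CPM against 405 and 303 CPM in the BA, a difference of -1.61, SE 0.31, q = 0.00993, and DNAJB4 at 473 and 38.2 CPM against 130.1 and 202 CPM, a difference of -2.97, SE 0.50, q = 0.00267. Both kept the call without each rabbit in turn. TM4SF18 had no count in either sham BA media library and 309 and 44.5 CPM in the ligated rabbits (q of the difference = 0.000293), so that no size is given for its difference. CRYAB, a small heat shock protein, had the smallest q among negative differences. In the BA it was at 3163 and 2053 CPM in sham and 29919 and 27949 CPM in ligated rabbits (log2 fold change 3.47, SE 0.26, q = 0.002), beside 1.38 at the BT, which did not pass, and the difference was -2.06, SE 0.22, q = 4.35e-06. CTGF (-1.08, SE 0.25, q = 0.0405) and ACTA2 (-0.76, SE 0.18, q = 0.0497) had negative differences with neither location past its own threshold, and both were lost when single rabbits were left out.

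**Figure D5:**
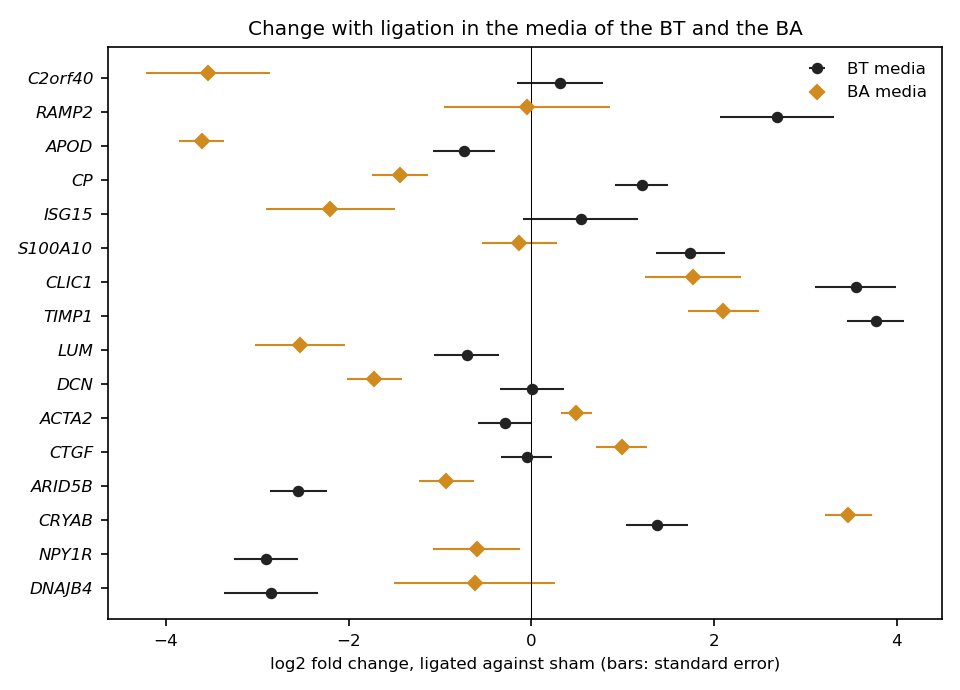
Log2 fold change with ligation (x axis, bars are standard errors, n = 2 against 2 rabbits) in the BT media (circles) and the BA media (diamonds) for 16 named genes whose change differed between the locations. APOD, DCN, LUM and C2orf40 lie below 0 in the BA and nearer to 0 in the BT, and NPY1R, ARID5B and DNAJB4 lie further below 0 in the BT.

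A further set of positive differences came from genes with a negative log2 fold change in the BA. APOD, apolipoprotein D, was in the BA at 11386 and 9042 CPM in sham and 857 and 818 CPM in ligated rabbits (log2 fold change -3.61, SE 0.25, q = 0.00159). At the BT it was at 1475 and 1132 CPM against 549.7 and 1012 CPM (difference 2.80, SE 0.28, q = 2.94e-06). CP, ceruloplasmin, was in the BA at 1871 and 1693 CPM against 803 and 508 CPM (log2 fold change -1.44, SE 0.31, q = 0.0795) and at the BT at 454 and 406 CPM against 1069 and 927 CPM (difference 2.69, SE 0.30, q = 7.22e-06). C2orf40 was in the BA at 535 and 117 CPM against 30.2 and 25.9 CPM (log2 fold change -3.54, SE 0.68, q = 0.0578) and at the BT at 80.2 and 42.9 CPM against 55.3 and 96.7 CPM (difference 3.49, SE 0.53, q = 0.000972). In these 3 genes each ligated BA library was below each sham BA library, and at the BT the groups of APOD did not overlap, those of CP lay in the opposite order and those of C2orf40 overlapped. DCN (1.61, SE 0.35, q = 0.0256), LUM, lumican (1.64, SE 0.37, q = 0.035), and ISG15, an interferon-stimulated ubiquitin-like protein (2.65, SE 0.47, q = 0.00379), followed, and DCN and LUM lost the call without rabbit 3 or rabbit 6 and ISG15 without rabbit 6. APOD, DCN and LUM are among the 13 fibroblast and leptomeningeal markers in the table and make up most of that list's summed level, which in the BA media was 19749 and 14178 CPM in the sham and 3517 and 2900.2 CPM in the ligated rabbits and in the BT media is given above. The other 10 markers, none with a location difference past the threshold, summed to 303 and 593 CPM in sham and 682 and 503 CPM in ligated rabbits in the BA media and to 146 and 746 CPM in sham and 305 and 443 CPM in ligated rabbits in the BT media. Of these, ALDH1A2, an enzyme of retinoic acid synthesis, stood at 96.8 and 64.1 CPM against 516 and 378 CPM in the BA (difference -1.21, SE 0.60, q = 0.571). It made up most of the ligated BA sum, which thus does not describe each member. In the BA, PDGFRA was lower after ligation (108 and 133 CPM against 56.5 and 34.5 CPM). The groups of DPT overlapped there (26.7 and 16.4 CPM against 31.2 and 20.1 CPM). The part of these cell types in the location differences was not tested.

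Of the 24 genes with the smallest q-values at the BT (12 in each direction), 19 had no difference past the threshold between the locations. ANKRD1 had a log2 fold change of 6.93 in the BA media beside 7.04 at the BT (difference 0.04, SE 0.46, q = 1). TNC (2.24 and 1.87), ABI3BP (-3.12 and -3.35), DPEP2 (-5.18 and -4.03) and ITGA5 (2.17 and 2.07) are given in the same order, with q-values of the difference of 0.762, 0.979, 0.571 and 0.999. For MYH11 the values were -1.16 and -1.70 (difference -0.47, SE 0.31, q = 0.764). With 2 rabbits a group, such q-values do not show that the changes were equal.

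Between the layers of the BT, the change with ligation did not differ past the threshold for any gene. Of 9624 genes tested over the 8 BT libraries with rabbit as a block, 0 passed edgeR's test (0%), and 466 had an unadjusted p below 0.05, while DESeq2 called 112. The count was 14 without rabbit 6 and 0 without each of the other rabbits. The smallest q-value was 0.078, for TYROBP. For 20 of the 24 genes with the smallest q-values in the media, the intimal libraries of the same rabbits did not overlap between the groups and lay in the direction seen in the media, as they did for 33.8% of the genes tested in the media. The intimal libraries also held medial markers, with ACTA2 at 20552 and 20495 CPM in sham and 11436 and 49081 CPM in ligated rabbits, and the part of medial tissue in this order was not tested. The intimal groups overlapped for CHI3L1, FLNC, RCAN2 and TNFAIP6. ANKRD1 was in the BT intima at 1.34 and 6.56 CPM in sham and 1039 and 932 CPM in ligated rabbits, TIMP1 at 723 and 446 CPM against 19318 and 8566 CPM, and TM4SF18 at 17.3 and 41 CPM against 1588 and 890.0 CPM. OGN stood at 13877 and 3947 CPM against 211 and 402 CPM, and ECM2 at 386 and 161 CPM against 36 and 19.3 CPM. In the fit of the intima alone none of these 5 passed (q = 0.247 for the first 4 and 0.248 for ECM2). UTRN and ARID5B had log2 fold changes of -1.01 and -0.74 there, beside -2.65 and -2.55 in the media, and the differences between layers had q-values of 0.966 and 0.884.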

How the data were processed

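RNA from laser-microdissected BT media was amplified by the authors with SMART-Seq v4 and sequenced from Nextera libraries as single reads. Alignment to oryCun2 used STAR without trimming, and reads with a unique position were assigned to exons of the Ensembl annotation by featureCounts 1.6.2, run for reverse-stranded reads. The kit does not mark strand, so reads on the other strand of a gene were not counted, all counts rest on part of the reads, a gene and an overlapping antisense gene cannot be told apart, and near-identical paralogs are uncertain. The deposited values are raw counts for 13788 symbols and 1 entry without a symbol (13.8% to 16.7% of counts in the BT media), which was left out. Dates had replaced 22 symbols, which were not mapped. All 16 columns were mapped to samples.

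Genes with a mean above 1 CPM in a group were tested in R 4.3.3 with edgeR 4.0.16 (TMM, quasi-likelihood F test in its older form, q below 0.05 after Benjamini-Hochberg adjustment over the tested genes, SE from the fold change and F). CPM takes the place of RPKM, as lengths were not used. Sham and ligated animals were different rabbits and could not be paired. Differences between locations and layers were fitted as interactions with rabbit as a block, since regions of equal rabbit number came from the same animal. The common biological coefficient of variation was 0.64. Steps were tested on simulated data and summarised with Python 3.11.15. Named genes were the 12 with the smallest q in each direction, up to 4 called members per direction and the 2 with the highest CPM of each list, every marker, and 6 genes of an interaction. ARPC1B, ARPC2, CAPG, PLS3, CCT3 and CCT6A were named beyond this rule, after their values were seen. Lists are described by counts and medians without a test. The members and lists were chosen with earlier results of these data known. Alternatives were DESeq2 1.42.0, other scalings, filters, wider fits, and each rabbit left out. Each alternative with 1 rabbit left in a group assumes that rabbit to vary like the other group. Some genes that the rule names or that passed the threshold are not reported here.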

Additional observations from a re-analysis of the deposited data

Results flagged for a closer look

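Between the media of the BT and that of the BA, the change with ligation differed for 17 of the named genes, by the interaction of location and flow in edgeR's quasi-likelihood F test with rabbit as a block (n = 2 against 2 rabbits). Each value is the log2 fold change at the BT minus that at the BA. Positive differences were those of C2orf40 (3.49, q = 0.000972), RAMP2 (3.13, q = 0.00457), APOD (2.80, q = 2.94e-06), CP (2.69, q = 7.22e-06), ISG15 (2.65, q = 0.00379), S100A10 (1.97, q = 0.0346), CLIC1 (1.84, q = 0.0256), TIMP1 (1.77, q = 0.000953), LUM (1.64, q = 0.035) and DCN (1.61, q = 0.0256). Negative differences were those of DNAJB4 (-2.97, q = 0.00267), NPY1R (-2.40, q = 0.00665), CRYAB (-2.06, q = 4.35e-06), ARID5B (-1.61, q = 0.00993), CTGF (-1.08, q = 0.0405) and ACTA2 (-0.76, q = 0.0497). For TM4SF18, at 0 in the BA media of both sham rabbits, the q of the difference was 0.000293. TIMP1, TM4SF18, ARID5B, DNAJB4, CRYAB, APOD, CP and C2orf40 passed without each rabbit in turn, and without the replicate block APOD and CP alone passed (q = 0.0426 for each).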

How the results depend on the processing

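Against the 206 genes that passed in the BT media, testing all genes with a count gave 557, DESeq2 594 and the fit over 16 libraries 19, and leaving out each rabbit gave 38 to 645. Without composition normalization, with RLE scaling, filterByExpr, edgeR's version 4 form or the 8 medial libraries the count lay between 149 and 194. For the difference between locations, 47 genes became 2 without the replicate block, 151 with all genes with a count, 156 with DESeq2 and 31 to 189 with a rabbit left out. For the difference between layers, 0 became 1 with all genes with a count, 112 with DESeq2 and 0 to 14 with a rabbit left out, and stayed 0 without the replicate block. The cause of these shifts was not tested, beyond the smaller number of rabbits or the other set of genes. Over 639 recomputed fold changes of 71 named genes past the threshold (9 alternatives, without the fits of all genes, filterByExpr and edgeR's version 4 form), 492 kept direction and call, 147 kept the direction and lost the call, and 0 reversed. Because the sham and ligated libraries of these 71 genes did not overlap, a reversal was all but impossible beforehand. Over 153 recomputed location differences of 17 genes, 118 kept the call, 35 lost it and 0 reversed. The calls of 12 genes held in every alternative run for the BT media (ANKRD1, ARID5B, ATP5PF, CLIC1, DPEP2, ENPP2, FABP5, FNDC1, NR1D2, RDH10, TIMP1 and UTRN; ENPP2 and NR1D2 were named after their values were seen). With 2 rabbits a group and 3350190 to 8504341 counts, genes of a few CPM rest on few counts.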

Other observations

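Outside the lists, 144 of the 206 genes belonged to none of the 27 pathway lists. Of these, 4 carried names of RNA families in place of gene symbols, RF00618, RF00432, RF00582 and RF00406, with log2 fold changes of -4.16, -3.07, -4.02 and -2.05. Their calls were lost without ligated rabbit 6, that of RF00406 also without ligated rabbit 5, and that of RF00582 also without sham rabbit 3. TEF, a PAR-domain transcription factor, stood at 51.5 and 90.3 CPM in the sham and 12.2 and 5.89 CPM in the ligated rabbits (log2 fold change -2.99, SE 0.60, q = 0.0263), and NR1D2, the nuclear receptor REV-ERB beta, at 434 and 657 CPM against 78.5 and 129 CPM (log2 fold change -2.39, SE 0.37, q = 0.00691). The call of TEF was lost without ligated rabbit 6. All 6 genes were picked once their values were known.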
